A study of Mus musculus with 50 samples.

Results

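Eph receptors and their ligands, the ephrins, were followed through 50 mouse mammary gland tumors. The 9 genes are 6 receptors (Epha1, Epha2, Epha3, Ephb2, Ephb3 and Ephb4) and 3 ligands (Efna1, Efnb1 and Efnb2), taken by gene symbol from a table of 37701 genes. Ephb3 and Epha1 were selected on measured values of these tumors, their lower RPKM with insulin than with vehicle, so that difference is described here without a test, as are the differences of these genes from vehicle in the other treatments. All 9 genes passed the filter on low values, a mean of at least 0.5 RPKM (reads per kilobase of gene, normalized to the size of the library), as did 16733 genes in total.

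Eph receptors are the largest family of receptor tyrosine kinases. Their ligands are bound to the membrane of a neighboring cell, ephrin-A by a lipid anchor and ephrin-B by a transmembrane segment, and both the receptor cell and the ligand cell can receive a signal. EphA receptors mostly bind ephrin-A and EphB receptors mostly bind ephrin-B. In epithelia the pairs set boundaries between cell populations, and in the mammary gland they are known from branching, the luminal and basal layers and tumor growth, while ephrin-B2 and EphB4 are known from arteries and veins.

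The tumors came from female p53R270H/+WAPCre mice, which carry 1 mutant p53 allele that is switched on where the whey acidic protein promoter drives Cre, in mammary epithelium. This genotype was shared by all groups, the vehicle group included. Mice were 8 weeks old at the start, were injected chronically with vehicle, insulin, glargine, X10 or IGF1, and gave a tumor of 1 cm3 that was taken 24 h after the last injection, with 10 tumors per treatment. The study chose tumors of an epithelial to mesenchymal transition (EMT)-like type whose latency lay near the median of their group, so the groups stand for such tumors and not for all tumors that arose. It reported a significantly shorter latency with X10 and IGF1. Mouse age and length of treatment at collection thus differed between groups and cannot be told apart from the compound. Glargine and X10 are insulin analogues, and IGF1 is insulin-like growth factor 1. Library size, recovered from the steps of the RPKM values, was between 26.6 and 51.9 M reads, with group medians between 35.4 M (X10) and 44.0 M reads (vehicle). The mouse numbers run in order of treatment, so any effect of the order of handling cannot be told apart from treatment. In bulk tumors, fewer cells of a type and less RNA per cell cannot be told apart, which holds for each value below.

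The EMT-like label was checked against marker genes. Vim, a mesenchymal intermediate filament, was between 1094 and 6102 RPKM, and the epithelial adhesion gene Cdh1 was between 0.993 and 106 RPKM. Epithelial markers were present at some level in every tumor, since none of the 10 was at 0 in any tumor. Their summed level ran from 23.6 to 8884 RPKM in the vehicle tumors and from 76.9 to 579 RPKM in the insulin tumors. The mean z-score of the 10 markers, used below as the epithelial score, was highest in vehicle_174 (2.73), named by treatment and mouse number, followed by vehicle_195 (1.94), vehicle_182 (1.86), X10_111 (1.75), X10_105 (1.495) and glargine_63 (1.23).

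Promoter sequences are given for the pairs of genes whose levels ran together most closely across tumors, Epha1 with Ephb3 and Ephb4 with Efna1, as will be shown. Each is the RefSeq window of 300 bases (GRCm38.p6), from 250 bases before to 50 bases after the start of the gene, 5′ to 3′ on the strand of the gene, and all 9 genes had a window. Capitals mark matches to CACCTG or its reverse complement CAGGTG, the E-box letters read by Snail and Zeb proteins, and to ACGTG or CACGT, the core letters of hypoxia response elements. None of the matches overlapped. Epha1 lies on the minus strand (chr6:42373219-42373518), Ephb3 on the plus strand (chr16:21204545-21204844), Ephb4 on the plus strand (chr5:137349859-137350158) and Efna1 on the minus strand (chr3:89280902-89281201, the outer of its start sites).
Epha1: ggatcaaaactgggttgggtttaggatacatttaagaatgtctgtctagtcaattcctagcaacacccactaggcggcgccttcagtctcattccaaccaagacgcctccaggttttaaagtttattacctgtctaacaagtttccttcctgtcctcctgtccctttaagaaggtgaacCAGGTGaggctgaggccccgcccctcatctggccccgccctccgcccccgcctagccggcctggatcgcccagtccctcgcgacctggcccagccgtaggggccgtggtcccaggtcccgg
Ephb3: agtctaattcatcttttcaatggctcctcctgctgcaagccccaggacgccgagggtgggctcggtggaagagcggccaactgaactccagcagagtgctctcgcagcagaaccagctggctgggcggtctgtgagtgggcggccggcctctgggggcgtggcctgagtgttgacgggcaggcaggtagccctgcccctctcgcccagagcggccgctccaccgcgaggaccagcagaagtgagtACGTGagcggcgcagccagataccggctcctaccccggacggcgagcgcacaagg
Ephb4: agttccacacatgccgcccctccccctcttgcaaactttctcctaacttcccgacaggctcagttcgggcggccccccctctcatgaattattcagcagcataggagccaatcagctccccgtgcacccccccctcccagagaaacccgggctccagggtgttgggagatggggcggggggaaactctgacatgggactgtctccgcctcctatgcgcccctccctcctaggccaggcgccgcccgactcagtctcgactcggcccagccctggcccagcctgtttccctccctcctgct
Efna1: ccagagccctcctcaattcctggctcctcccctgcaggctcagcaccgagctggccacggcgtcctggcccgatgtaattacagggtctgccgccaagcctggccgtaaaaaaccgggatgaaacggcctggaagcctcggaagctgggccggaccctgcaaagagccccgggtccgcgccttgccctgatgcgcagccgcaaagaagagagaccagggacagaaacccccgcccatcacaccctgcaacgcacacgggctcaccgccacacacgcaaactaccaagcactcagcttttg

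The E-box letters were found once in the Epha1 window, starting at position -71 from the gene start, and also in the windows of Ephb2 (-25) and Efnb2 (-167). In all, 6640 of 32851 promoter windows of this length (20.2%) held these letters. The letters ACGTG or CACGT occurred once in the Ephb3 window (-5), against 19.6% of all windows. Other forms of the hypoxia core were not searched. Neither motif was present in the Ephb4 and Efna1 windows shown. The letters CTTTGAT or ATCAAAG, read by TCF factors of the Wnt pathway, were in none of the member windows and in 3.73% of all windows. The windows shown had a GC content of 58.0% (Epha1), 66.7% (Ephb3), 64.7% (Ephb4) and 63.7% (Efna1), with 14, 23, 14 and 20 CpG sites, while the median over all windows was 52.7% and 7 sites. A letter match describes the sequence and was not tested as a binding site.

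Levels between genes were compared per gene length. As deposited, Epha2 was the most abundant member, with 135.3 ± 58.7 RPKM (SD, n = 50 tumors). EphA2 is the EphA receptor best known from breast cancer, where it can signal with and without ligand. Efnb2 followed with 48.5 ± 25.5 RPKM. Ephb4, the receptor that binds ephrin-B2, had 24.7 ± 8.86 RPKM, Efnb1 had 24.0 ± 8.06 RPKM and Efna1, a ligand of EphA2, had 23.4 ± 11.4 RPKM. Lower levels were found for Ephb2 with 13.8 ± 6.06 RPKM, Ephb3 with 5.60 ± 4.30 RPKM, Epha1 with 2.29 ± 3.19 RPKM and Epha3 with 1.89 ± 2.04 RPKM. In the order of mean log2(RPKM + 0.5), 3 neighboring pairs did not differ beyond their spread in a two-sided sign-flip permutation test adjusted over the 8 pairs. These were Ephb4 and Efnb1 (mean difference 0.05 on the log2 scale, adjusted p = 0.629), Efnb1 and Efna1 (0.10, adjusted p = 0.425) and Epha1 and Epha3 (0.03, adjusted p = 0.908). The other 5 neighbors differed, by a mean log2 difference between 0.80 (Efna1 over Ephb2, adjusted p = 4.8e-05) and 1.52 (Epha2 over Efnb2, adjusted p = 2e-05). Of these, Ephb2 over Ephb3 (1.22 over all tumors) did not hold within every group. In the vehicle tumors it was 0.12 ± 1.86 (SD, n = 10) with Ephb2 the higher in 5 of 10, and in the insulin tumors 2.03 ± 0.38 with Ephb2 the higher in 10 of 10. That contrast in part restates the difference for which Ephb3 was chosen. The values that chose Ephb3 and Epha1 also enter the pooled tests of their pairs. In the groups not used for the choice, Ephb2 over Ephb3 was 1.54 (glargine), 1.14 (X10) and 1.25 (IGF1). Ephb3 over Epha1 was 1.67, 1.02 and 1.62 there. Epha2 was the highest of the 6 receptors in 49 of 50 tumors, and Efnb2 the highest of the 3 ligands in 40 of 50.

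Gene length decided part of this order. The lengths behind the deposited RPKM values were recovered from the steps between values. Across genes with over 1 transcript they equalled the median transcript length of the annotation, within 0.5 bases, in 6068 of 12440 genes (48.8%) and the longest transcript in 289 genes (2.32%). For Epha2 the recovered length was 750 bases, while its longest coding transcript in GENCODE M21 has 3913 bases, so its deposited RPKM is 5.22 times the value per longest coding transcript. The same ratio was 3.53 for Ephb2 (3086 against 10902 bases), 1.93 for Efnb2, 1.60 for Efnb1, 1.25 for Ephb3 and between 1.00 and 1.12 for Ephb4, Efna1, Epha1 and Epha3. Per longest coding transcript, a scale chosen after seeing the data, Epha2 had 25.9 ± 11.3 RPKM, Efnb2 25.2 ± 13.3 RPKM and Ephb4 22.1 ± 7.94 RPKM, and these neighbors no longer differed beyond their spread (adjusted p = 0.663 for Epha2 and Efnb2, and 0.772 for Efnb2 and Ephb4, permutation test). Efna1 (21.2 ± 10.3 RPKM) then stood above Efnb1 (15.0 ± 5.03 RPKM), with a log2 difference of 0.43 and adjusted p = 4e-05, and Ephb3 and Ephb2 did not differ beyond their spread (adjusted p = 0.577, permutation test), with means of 4.49 and 3.91 RPKM but medians of 3.63 and 4.24 RPKM and Ephb2 the higher in 31 of 50 tumors. Epha2 was then the highest receptor in 32 tumors and Ephb4 in the other 18. A length is the same in every tumor, so the ratio of RPKM between treatments does not depend on it.

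**Figure D1:**
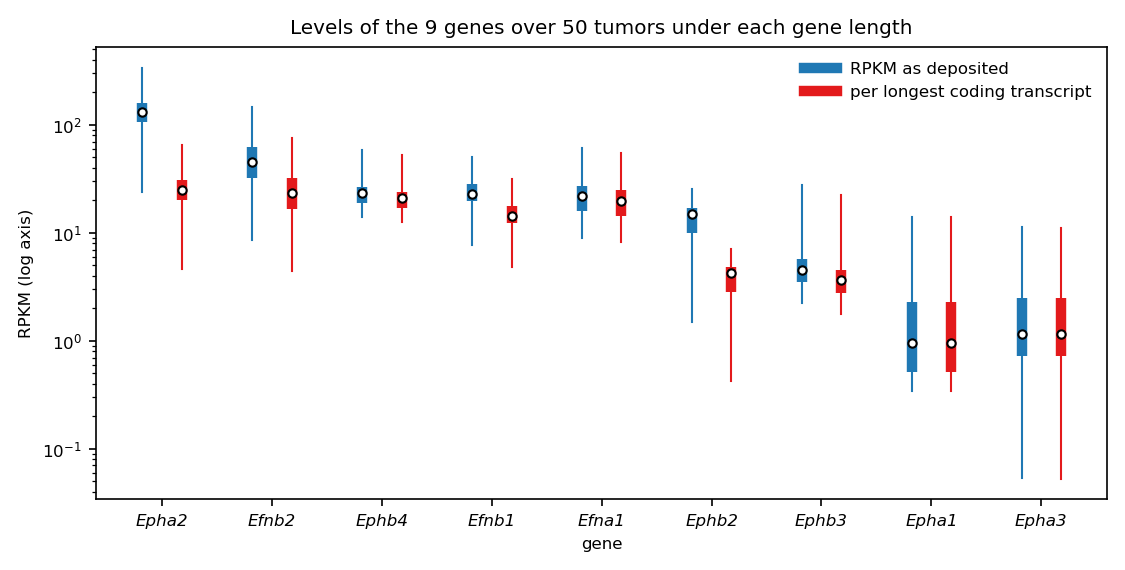
RPKM of the 9 genes over 50 tumors on a log axis, as deposited (blue) and per longest coding transcript (red), with the median as a circle, the middle 50% of tumors as a thick bar and the full range as a line. The ranges of Epha2, Efnb2, Ephb4 and Efna1 overlap on both scales, and the median of Epha2 is 131 RPKM as deposited and 25.2 RPKM per longest coding transcript, against 45.5 and 23.6 RPKM for Efnb2.

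Epha1, a receptor of epithelial cells, ran from 0.342 to 14.1 RPKM over the 50 tumors (median 0.955), and its SD on the log2 scale (1.14) was larger than that of 94.9% of tested genes. Recovered reads for Epha1 were between 42 and 1990 per tumor. Epha3, a receptor of mesenchymal and stromal cells, ran from 0.053 RPKM in vehicle_161, or 13 reads, to 11.2 RPKM in vehicle_197, with a median of 1.15 RPKM and an SD above that of 91.9% of genes. Epha2 ran from 24.0 to 340 RPKM (median 131 RPKM, SD at percentile 81.8). In the X10 group Epha2 kept to 110.8 to 180.5 RPKM, whereas in the IGF1 group it ran from 24.0 to 239 RPKM.

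Among the EphB receptors, Ephb2, known from the crypt and from axon guidance and also found in stromal cells, ran from 1.49 to 25.3 RPKM (median 15.0), with an SD above that of 90.1% of genes. Its spread was small in the insulin tumors (13.5 to 23.7 RPKM) and the glargine tumors (12.6 to 23.8 RPKM), and larger in the vehicle (2.05 to 20.9 RPKM), X10 (2.50 to 18.3 RPKM) and IGF1 tumors (1.49 to 25.3 RPKM). Ephb3, a receptor of epithelial progenitor compartments, ran from 2.22 to 27.8 RPKM with a median of 4.53 RPKM (percentile 79.6 of SD). Ephb4 was the least variable of the 9, from 14.0 to 58.1 RPKM with a median of 23.5 RPKM, at percentile 54.2 of SD. The ligands ran from 8.99 to 60.5 RPKM for Efna1 (median 21.7), from 7.74 to 50.9 RPKM for Efnb1 (median 23.1) and from 8.60 to 147.2 RPKM for Efnb2 (median 45.5). By SD they stood at percentiles 77.7 (Efna1), 65.9 (Efnb1) and 86.1 (Efnb2).

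**Figure D2:**
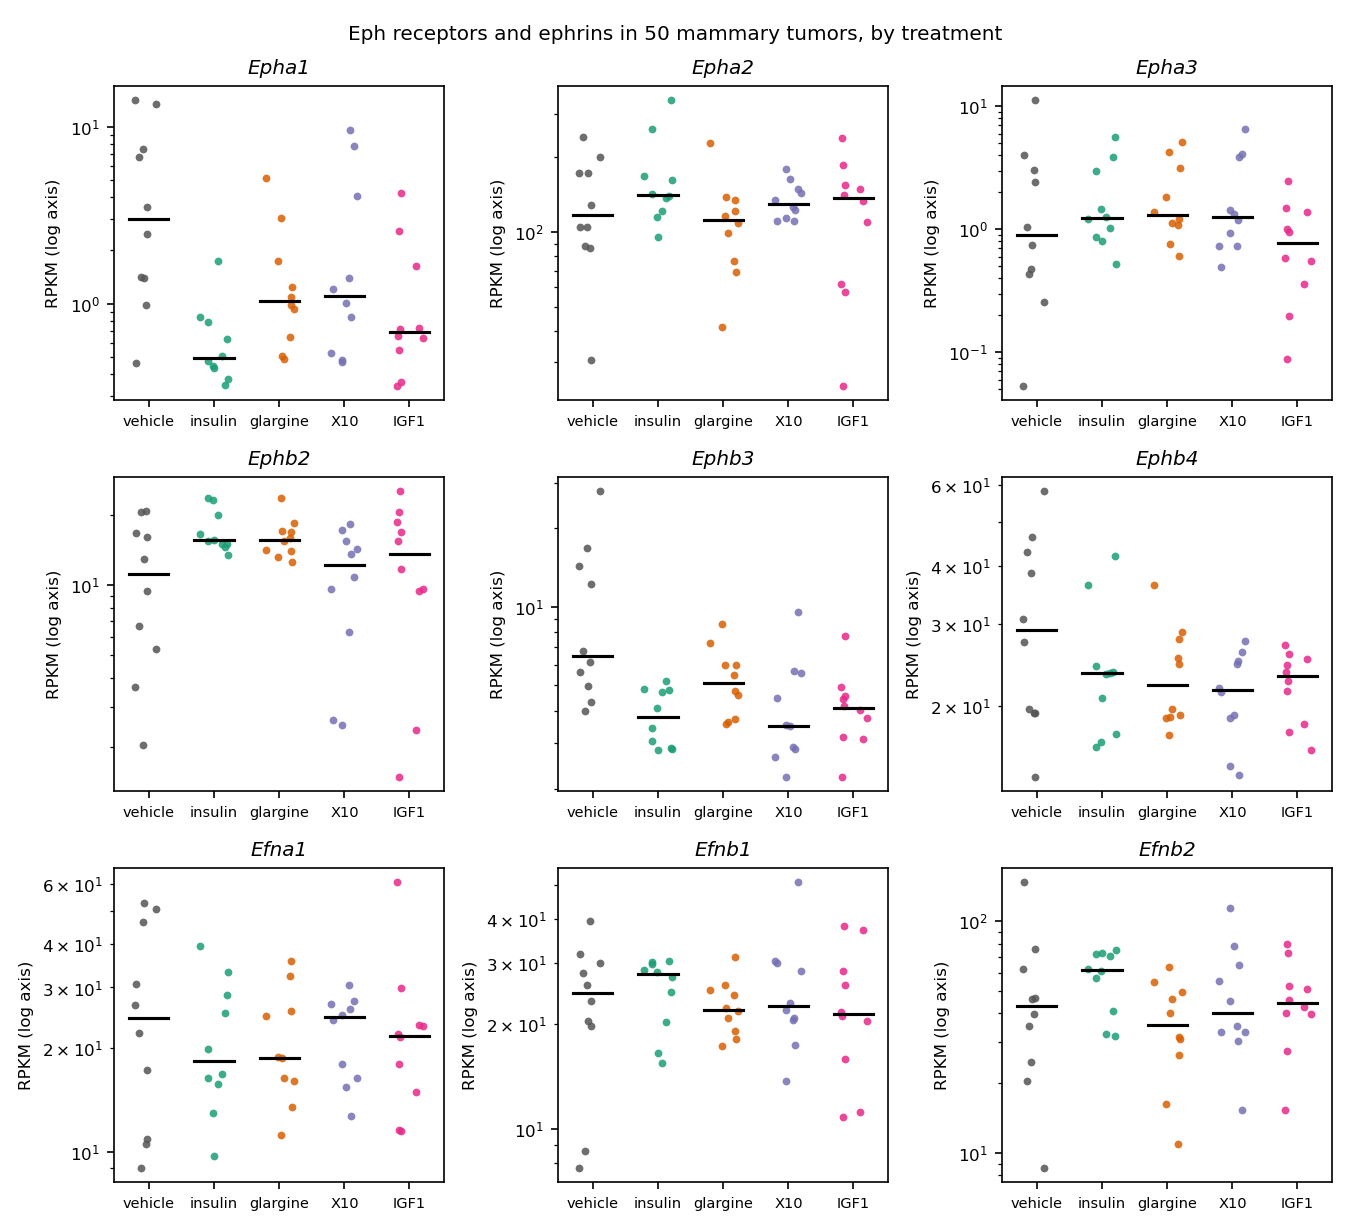
RPKM of each gene in each tumor (points, log axis) for the 5 treatment groups of 10 tumors, with the group median as a bar. Epha1 is lowest in the insulin tumors, Ephb3 spreads widest in the vehicle tumors, Ephb2 is tightly grouped in the insulin and glargine tumors, and groups overlap for every gene.

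The difference that picked Ephb3 and Epha1 is given as a description. In the vehicle tumors Epha1 had a lowest, median and highest value of 0.461, 3.01 and 14.1 RPKM, with a mean of 5.21 ± 5.10 RPKM (SD, n = 10). In the insulin tumors these were 0.348, 0.491 and 1.74 RPKM, with a mean of 0.658 ± 0.416 RPKM. All 10 insulin tumors lay below the vehicle median, 6 of 10 vehicle tumors lay above the highest insulin tumor, and the groups overlapped in the remainder. The log2 fold change of Epha1 was -1.80 (SE 0.44). Ephb3 had 3.99, 6.47 and 27.8 RPKM in the vehicle tumors (mean 10.3 ± 7.62) and 2.83, 3.77 and 5.19 RPKM in the insulin tumors (mean 3.87 ± 0.956). Here too all insulin tumors were below the vehicle median and 7 of 10 vehicle tumors were above the highest insulin tumor, with a log2 fold change of -1.06 (SE 0.25). Of 16733 genes, 0 (0.0%) had an adjusted p under 0.05 for insulin against vehicle by limma, with 1865 genes (11.1%) at an unadjusted p under 0.05, and limma voom on recovered reads called 0 as well. A filter at a mean of 5 RPKM, quantile normalization, upper quartile scaling and library size as covariate each gave 2 called genes, lower with insulin.

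Epithelial markers moved with this difference. All 10 epithelial markers and all 4 basal epithelial markers had a lower mean in the insulin than in the vehicle tumors, with median log2 fold changes of -1.501 and -1.311. With the epithelial score as a covariate the log2 fold change was -1.18 for Epha1 and -0.75 for Ephb3. The highest Epha1 values were in vehicle_161 (14.1 RPKM), vehicle_174 (13.5 RPKM) and X10_100 (9.56 RPKM), and the highest Ephb3 values in vehicle_174 (27.8 RPKM) and vehicle_182 (16.8 RPKM). Some tumors of low epithelial score departed from this. IGF1_158 had the lowest score of all tumors (-1.23) with 2.58 RPKM of Epha1 and 4.45 RPKM of Ephb3, and vehicle_197 had a score of -1.19 with 3.52 RPKM of Epha1 and 12.2 RPKM of Ephb3. Leaving out 1 tumor at a time, the log2 fold change was between -2.02 and -1.59 for Epha1, nearest to 0 without vehicle_161, and between -1.17 and -0.88 for Ephb3, nearest to 0 without vehicle_174.

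For the other members, insulin against vehicle gave log2 fold changes of 0.84 for Ephb2 (SE 0.38), 0.47 for Efnb2 (SE 0.34), 0.42 for Epha2 (SE 0.31), 0.21 for Efnb1 (SE 0.23), 0.19 for Epha3 (SE 0.42), -0.19 for Efna1 (SE 0.29) and -0.30 for Ephb4 (SE 0.19). For Ephb2, 6 of 10 vehicle tumors lay below the lowest insulin tumor and no insulin tumor lay below the vehicle median of 11.2 RPKM. Markers of other cells moved beside it. With insulin, 6 of 6 fibroblast markers (median log2 fold change 0.26), 6 of 6 mesenchymal markers (0.21) and 6 of 6 leukocyte markers (0.64) had a higher mean than with vehicle, and their part in the values of the members was not tested.

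The study asked how the analogues and IGF1 compare with vehicle. These comparisons share the 10 vehicle tumors, so their values are set side by side and were not treated as independent. Epha1 had means of 1.59 ± 1.47 RPKM in the glargine, 2.73 ± 3.33 RPKM in the X10 and 1.24 ± 1.25 RPKM in the IGF1 tumors (SD, n = 10 each), with log2 fold changes against vehicle of -1.12, -0.83 and -1.39 (SE 0.44). Ephb3 had 5.35 ± 1.66, 4.29 ± 2.19 and 4.21 ± 1.47 RPKM, with log2 fold changes of -0.66, -1.01 and -0.98 (SE 0.25). Both genes thus had their highest group mean in the vehicle tumors and lower means in all 4 treatments, while epithelial markers were lower than vehicle on average for 9 of 10 genes with glargine, 8 of 10 with X10 and 10 of 10 with IGF1. The 4 basal markers did not move alike. Of these, 3 had a lower mean than vehicle with glargine and 4 with IGF1, but with X10 2 were lower and 2 higher. The mean basal score was 0.435 in the X10 and 0.392 in the vehicle tumors. The X10 mean rests largely on X10_105, at 3.94, while the next X10 tumor was X10_111 at 1.35. By median, the summed level of these markers was 15.9 RPKM in the X10 and 65.0 RPKM in the vehicle tumors.

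Of the other 7 members none was called in glargine, X10 or IGF1 against vehicle at an adjusted p under 0.05 (limma, Benjamini-Hochberg over 16733 genes). Calls over all genes were 0 (0.0%, with 1043 at an unadjusted p under 0.05) for glargine, 11 (0.0657%, 1841 unadjusted) for X10 and 1 (0.00598%, 1479 unadjusted) for IGF1, so few genes of any kind were called. Leaving out 1 tumor at a time, the X10 count was between 1 (without X10_111 or vehicle_174) and 21 (without X10_105), and the IGF1 count between 0 (without IGF1_132) and 3 (without vehicle_195). Limma voom on the recovered reads called 0, 10 and 1 genes, with no member among them. Ephb4 came nearest in X10 tumors. It had 14.0, 29.2 and 58.1 RPKM as lowest, median and highest value in the vehicle tumors (mean 31.7 ± 14.4), 14.2, 21.6 and 27.6 RPKM in the X10 tumors (21.4 ± 4.61) and 16.0, 23.2 and 27.1 RPKM in the IGF1 tumors (22.2 ± 3.797). All 10 X10 tumors and all 10 IGF1 tumors lay below the vehicle median, and vehicle tumors lay on both sides of them. The log2 fold change of Ephb4 was -0.46 for X10 (SE 0.19, adjusted p = 0.366) and -0.39 for IGF1 (SE 0.19, adjusted p = 0.555), and -0.32 for glargine (SE 0.19, adjusted p = 0.811), in limma.

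Ephb2 was 0.75 higher on the log2 scale in glargine than in vehicle tumors (SE 0.38, limma adjusted p = 0.789), with 12.6, 15.7 and 23.8 RPKM as lowest, median and highest glargine value. No glargine tumor lay below the vehicle median of 11.2 RPKM. Beside it, 5 of 6 fibroblast markers (median log2 fold change 0.55) and 6 of 6 mesenchymal markers (0.49) had a higher mean with glargine, and their part was not tested. Epha3 had a log2 fold change of -0.53 in the IGF1 tumors (SE 0.42, limma adjusted p = 0.794), with 0.088, 0.768 and 2.49 RPKM, while the vehicle tumors had 0.053, 0.893 and 11.2 RPKM. Vehicle tumors stood at both ends of that range. Their highest value was that of vehicle_197 alone, with 4.02 RPKM in the next vehicle tumor. The remaining log2 fold changes of the 7 genes against vehicle were between -0.26 (Efnb2, glargine) and 0.27 (Epha3, glargine).

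Glargine, X10 and IGF1 were then compared with each other, in 3 pairs, for all 9 genes. X10 differs from insulin by a single amino acid in the B chain, glargine by changes in both chains, and IGF1 is a separate hormone. All tumors were taken at the same size and time after injection, but latency differed between groups, as given above. The doses were not given in the sources used here. None of the 9 genes was called in any pair by limma. Over all genes, calls were 0 (0.0%, 1168 unadjusted) for glargine against IGF1, 298 (1.78%, 1949 unadjusted) for glargine against X10, and 0 (0.0%, 1951 unadjusted) for X10 against IGF1, and voom called 0, 167 and 0. The count of 298 was between 76 (without X10_111) and 577 (without X10_107) with 1 tumor left out, and X10 against IGF1 gave up to 8 calls (without IGF1_124), with no member among the calls. Ephb2 had the smallest adjusted p of the 9 for glargine against X10. It was 16.2 ± 3.25 RPKM in the glargine and 11.1 ± 5.74 RPKM in the X10 tumors, a log2 difference of 0.74 (SE 0.38, 95% interval -0.01 to 1.498, limma adjusted p = 0.440). In the same pair 6 of 6 fibroblast markers (median log2 difference 0.41) and 5 of 6 mesenchymal markers (0.12) were higher with glargine, and their part was not tested. Epha3 was lowest in the IGF1 tumors, with 0.910 ± 0.730 RPKM against 2.05 ± 1.57 with glargine and 2.14 ± 2.03 with X10. The log2 differences were 0.81 for glargine over IGF1 (SE 0.42, 95% interval -0.04 to 1.65, limma adjusted p = 0.734) and 0.75 for X10 over IGF1 (SE 0.42, 95% interval -0.09 to 1.60, limma adjusted p = 0.477). Fibroblast markers were higher than with IGF1 for 5 of 6 with glargine (median log2 difference 0.63) and 4 of 6 with X10 (0.21). Their part in Epha3 was not tested.

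Epha1 and Ephb3 could be tested in these pairs, since the rule did not use tumors of these groups. Ephb3 in glargine tumors was 0.35 above X10 (95% interval -0.15 to 0.85, limma adjusted p = 0.684) and 0.32 above IGF1 (-0.17 to 0.82, adjusted p = 0.845) on the log2 scale, and X10 and IGF1 differed by -0.03 (-0.53 to 0.47, adjusted p = 0.978). Epha1 in X10 tumors was 0.57 above IGF1 (-0.31 to 1.45, limma adjusted p = 0.605), and glargine was 0.27 above IGF1 (-0.61 to 1.15, adjusted p = 0.935) and 0.30 below X10 (interval of glargine minus X10 -1.18 to 0.58, adjusted p = 0.895). The sign of Ephb3 for glargine against IGF1, and of Epha1 for glargine and for X10 against IGF1, turned with the epithelial score as a covariate, and that of Ephb3 for X10 against IGF1 turned with upper quartile scaling. The intervals are not adjusted for the number of genes.

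The study's pooled comparison set X10 and IGF1, with high affinity for the IGF1 receptor, against vehicle, insulin and glargine. The vehicle and insulin tumors, whose values chose Ephb3 and Epha1, enter it, so these genes are given without a test. None of the other 7 genes was called by limma, against 26 of 16733 genes (0.155%, 1764 unadjusted) over all genes, a count that ran from 10 (without X10_113 or IGF1_128) to 131 (without IGF1_135) with 1 tumor left out. Ephb2 had a log2 difference of -0.46 (SE 0.24, adjusted p = 0.518, limma) and Ephb4 of -0.22 (SE 0.12, adjusted p = 0.556, limma). In the same comparison 5 of 6 fibroblast markers (median log2 difference -0.31) and 10 of 10 epithelial markers (-0.64) were lower, while 2 basal markers were lower and 2 higher. Their part was not tested. The other 5 tested genes were between -0.31 (Epha3) and 0.06 (Efnb2). Ephb3 differed by -0.42 (SE 0.16) and Epha1 by -0.14 (SE 0.28).

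**Figure D3:**
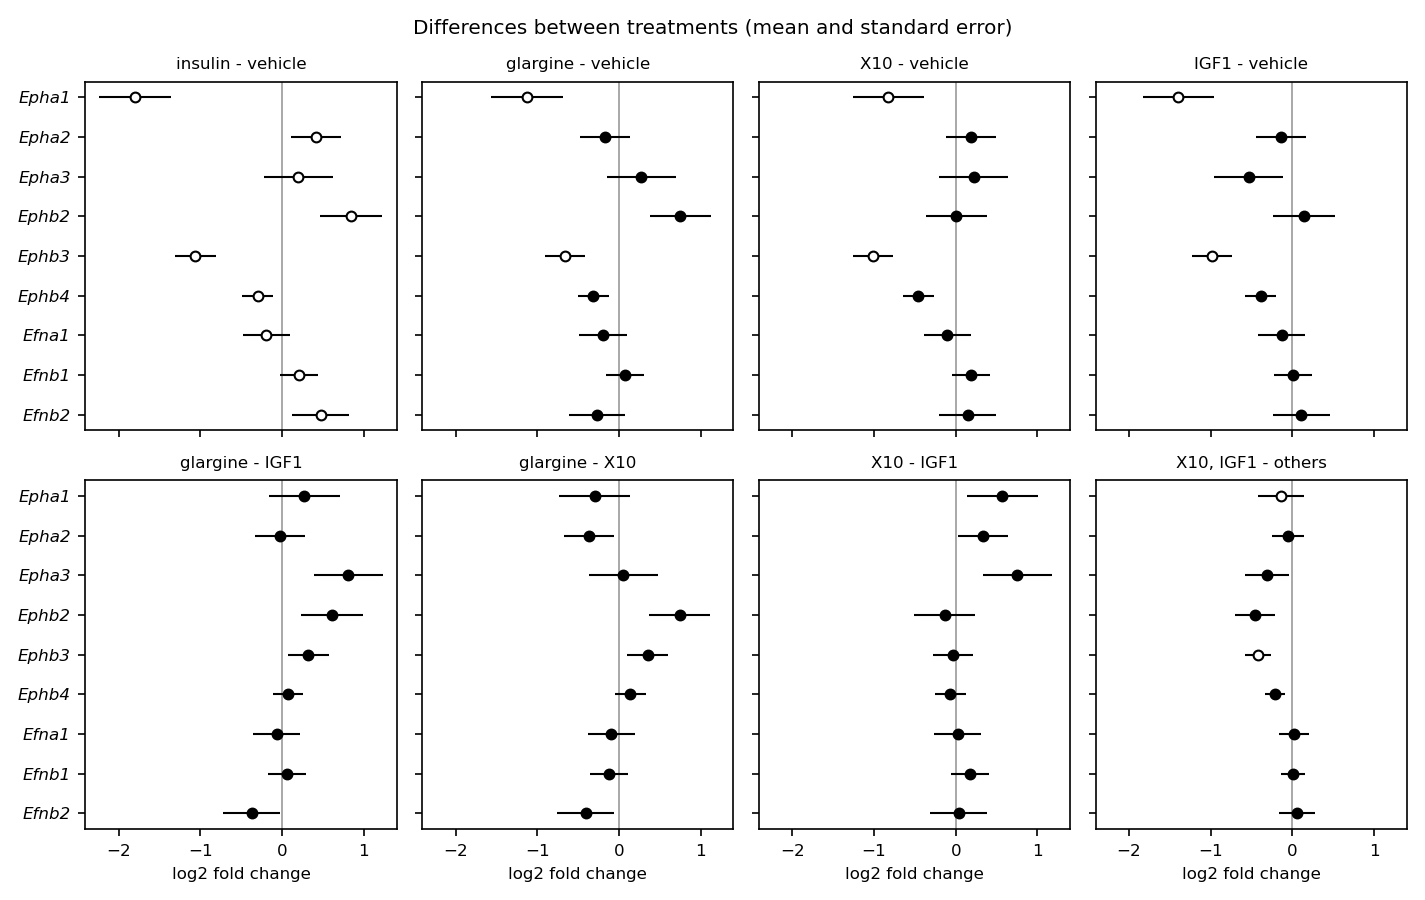
Log2 fold change with its standard error (horizontal bars) for the 9 genes in 8 comparisons of treatments, with 10 tumors per group. Open circles are described without a test because the genes or the comparison entered the choice of members, filled circles were tested with limma and none reached an adjusted p under 0.05.

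The other Eph and ephrin genes were looked at for context. Of the list of 13 genes, 8 passed the filter on low values, namely the receptors Epha4, Epha7, Ephb1 and Ephb6 and the ligands Efna2, Efna3, Efna4 and Efna5. Epha5, Epha6, Epha8, Epha10 and Efnb3 did not. None of the 8 was called in any comparison by limma. Against vehicle, 8 of 8 had a lower mean with X10 (median log2 fold change -0.26, against -0.03 over all tested genes), 7 of 8 with IGF1 (-0.41, against 0.02), 6 of 8 with glargine (-0.30, against 0.02) and 6 of 8 with insulin (-0.18, against 0.03). Efna4 had 10.5 ± 5.17 RPKM in the vehicle and 6.13 ± 1.55 RPKM in the X10 tumors, with a log2 fold change of -0.58 (SE 0.26, limma adjusted p = 0.400). Efna5 had 2.62 ± 1.78 RPKM in the vehicle and 1.25 ± 0.695 RPKM in the IGF1 tumors, a log2 fold change of -0.74 (SE 0.30, limma adjusted p = 0.443). Efna3 was low in most tumors, with a median of 0.586 RPKM, and stood at 11.0 RPKM in both vehicle_174 and X10_105, which were among the 6 tumors with the highest epithelial scores.

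Of 30 signalling partners, among them the adaptors Nck1 and Nck2, the exchange factors Vav2, Vav3, Ngef, Tiam1 and Kalrn, the kinases Src, Fyn, Yes1, Abl1 and Abl2 and the ephrin-cleaving protease Adam10, 29 were tested and none was called in any comparison. With insulin against vehicle, 24 of 29 had a higher mean and 5 a lower mean (median log2 fold change 0.15, against 0.03 over all genes), beside the higher leukocyte, mesenchymal and fibroblast markers given above for insulin, whose part was not tested. Nck2 had the smallest adjusted p of the list for insulin, X10 and IGF1 against vehicle (limma adjusted p = 0.296, 0.410 and 0.359), with log2 fold changes of -0.50, -0.34 and -0.46.

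Since the treatment comparisons left most of the variation within groups, the members were set against 11 marker scores over the 50 tumors. Each score is the mean z-score of a list of markers, and p-values of Pearson r are from a two-sided permutation test (100000 resamples), adjusted over the 99 pairs of gene and score. Epithelial scores and the levels of Epha1 and Ephb3 were both lower with insulin than with vehicle, so the difference that chose these genes enters their pooled r, which is given as a description. Their tests were run in the 30 glargine, X10 and IGF1 tumors, which the choice did not use, with values centred within treatment, and adjusted over the same 99 pairs. For the other 7 genes, 15 of 77 pairs had an adjusted p under 0.05, 13 after centring, 9 by Spearman rank correlation and 8 without the 2 tumors farthest from the median score, so some of the relations rest on a few tumors. For Epha1 and Ephb3, 5 of 22 pairs passed in the 30 tumors, and 0 by Spearman rank correlation. Many genes follow the same scores, and the share of tested genes with a pooled r of at least the same size is given for the relations described. Tumors share their cell makeup across genes, and whether makeup accounts for these relations was not tested.

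Epha1 followed the epithelial score with r = 0.69 and rho = 0.48 over all tumors, a size reached by 1.06% of tested genes. In the 30 tumors r was 0.62 (adjusted permutation p = 0.0261), rho was 0.47 (adjusted permutation p = 0.162) and r without the 2 farthest tumors was 0.52, while within these groups r was 0.40 (glargine), 0.85 (X10) and 0.26 (IGF1). Ephb3 followed the same score with r = 0.62 and rho = 0.44 over all tumors, reached by 1.79% of genes. In the 30 tumors r was 0.63 and rho 0.55 (adjusted permutation p = 0.0231 and 0.0737), with 0.27 (glargine), 0.86 (X10) and 0.53 (IGF1) within groups. The X10 tumors thus had the highest r of these 3 groups for both genes. Over all tumors without the 6 of highest epithelial score, r was 0.37 for Epha1 and 0.27 for Ephb3, so the relations were weaker among the other 44 tumors. Both genes also followed the basal score of Krt5, Krt14, Krt17 and Trp63, with r = 0.63 (rho = 0.45, reached by 1.43% of genes) for Epha1 and r = 0.61 (rho = 0.55, reached by 1.69%) for Ephb3 over all tumors. In the 30 tumors r was 0.62 for Epha1 (adjusted permutation p = 0.0276) and 0.73 for Ephb3 (adjusted permutation p = 0.00495), and rho was 0.53 and 0.59 (adjusted permutation p = 0.0939 and 0.0737). Without the 2 farthest of these tumors r was 0.47 for Epha1 and 0.54 for Ephb3. Krt5 was listed at 0 in 2 tumors.

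Ephb4 had r = 0.53 with the epithelial score, a size reached by 3.85% of genes, but rho was 0.28 and r without the 2 farthest tumors was 0.33, which no longer passed (adjusted permutation p = 0.111), so the relation rests on those tumors. With the basal score Ephb4 had r = 0.45 and rho = 0.46 (adjusted permutation p = 0.00869 and 0.0189), reached by 7.32% of genes, and r was 0.42 without the 2 farthest tumors and between -0.25 (IGF1) and 0.83 (vehicle) within groups. Its relation to the mesenchymal score, made of Vim, Zeb1, Zeb2, Twist1, Cdh2 and Fn1, was negative, with r = -0.53 and rho = -0.44, reached by 6.79% of genes, and r was -0.39 without the 2 farthest tumors and -0.24 without the 6 tumors of highest epithelial score. The mesenchymal relation of Ephb3 (r = -0.56, rho = -0.18, reached by 4.84% of genes) was carried by few tumors, as it was -0.28 without the 2 farthest and -0.22 in the 30 tumors (adjusted permutation p = 0.625). Efnb2 went the other way, with r = 0.51 for the mesenchymal and r = -0.44 for the epithelial score, sizes reached by 8.74% and 7.85% of genes, yet they were 0.27 and -0.26 without the 2 farthest tumors and did not pass there (adjusted permutation p = 0.219 and 0.235). Efnb2 had 8.60 RPKM in vehicle_174, its lowest value, and 147.2 RPKM in vehicle_194, its highest.

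Ephb2 and Epha3 were the members that followed fibroblast markers (Col1a1, Col1a2, Col3a1, Pdgfra, Dcn and Lum). For Ephb2 r was 0.64 and rho 0.49 (adjusted permutation p = 0.000495 and 0.00759), a size reached by 0.472% of tested genes, with 0.61 after centring and 0.53 without the 2 farthest tumors. Within groups it ran from -0.21 to 0.87. For Epha3 r was 0.49 and rho 0.43 (adjusted permutation p = 0.0027 and 0.0257), reached by 1.90% of genes, with 0.48 after centring and 0.42 without the 2 farthest tumors. Within groups r of Epha3 ran from -0.13 (X10) to 0.77 (vehicle). In the 30 glargine, X10 and IGF1 tumors it was 0.21 and did not pass (adjusted permutation p = 0.625). Ephb2 is a known Wnt target in the intestine, and it followed the score of other Wnt targets (Axin2, Nkd1, Notum, Lgr5, Rnf43 and Znrf3, since Sp5 was below the filter) with r = 0.46, reached by 1.57% of genes, but rho was 0.20 and r was 0.39 after centring (adjusted permutation p = 0.0722).

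Efna1 followed hypoxia markers (Car9, Slc2a1, Vegfa, Adm and Ndrg1), with r = 0.50 and rho = 0.51 (adjusted permutation p = 0.00218 and 0.00742), 0.52 after centring and 0.48 without the 2 farthest tumors. This size was reached by 3.60% of tested genes. Its highest values were 60.5 RPKM in IGF1_160, with a hypoxia score of 1.29, and 52.5 RPKM in vehicle_187. Efna1 was lower where the mesenchymal score (r = -0.46, rho = -0.39) and the leukocyte score (r = -0.46, rho = -0.39) were higher, sizes reached by 13.5% and 9.5% of genes. With proliferation markers (Mki67, Top2a, Ccnb1 and Cdk1), Ephb3 had r = -0.47 (rho = -0.40) and Efnb2 had r = 0.46 (rho = 0.40), sizes reached by 11.4% and 12.5% of tested genes, and for Ephb3 in the 30 tumors r was -0.57 and rho -0.55 (adjusted permutation p = 0.0276 and 0.0737). Over all tumors no relation of Epha2 or Efnb1 with any of the 11 scores passed. The largest were r = 0.28 for Epha2 with hypoxia (adjusted permutation p = 0.140) and r = 0.26 for Efnb1 with the fibroblast score (adjusted permutation p = 0.167). In the 30 tumors, centred within treatment, Efnb1 did follow the Wnt target score, with r = 0.62 and rho = 0.42 (adjusted permutation p = 0.0231 and 0.199). Within groups its r with that score was 0.81 (X10), 0.90 (IGF1), -0.48 (glargine), -0.12 (insulin) and -0.27 (vehicle). None of the 9 genes followed the endothelial score of Pecam1, Cdh5, Kdr, Tek, Tie1, Emcn and Esam, Ephb4 and Efnb2 included.

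**Figure D4:**
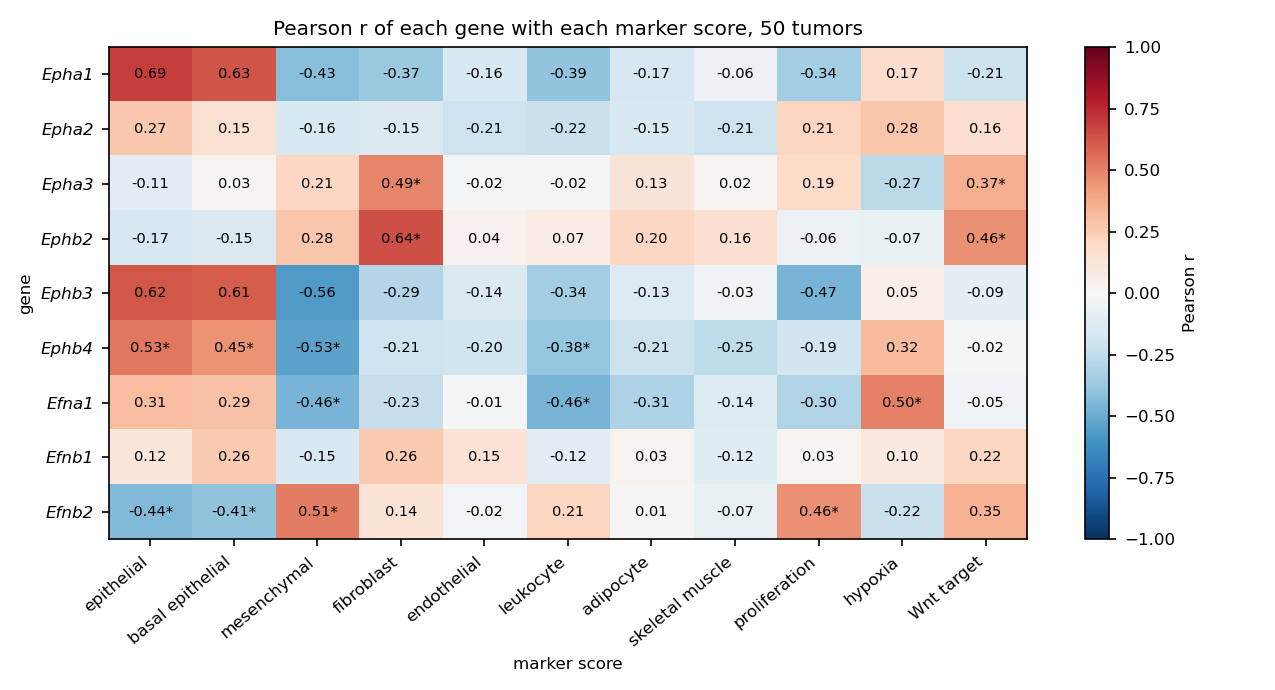
Pearson r over 50 tumors of each gene (rows) with each marker score (columns), red for positive and blue for negative, with an asterisk where the permutation p adjusted over the 99 pairs was under 0.05 (not marked for Epha1 and Ephb3, whose pooled r includes the difference that chose them). Epha1, Ephb3 and Ephb4 share positive values for the epithelial scores, Ephb2 and Epha3 for the fibroblast score, Efna1 for hypoxia, and the endothelial column holds no asterisk.

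**Figure D5:**
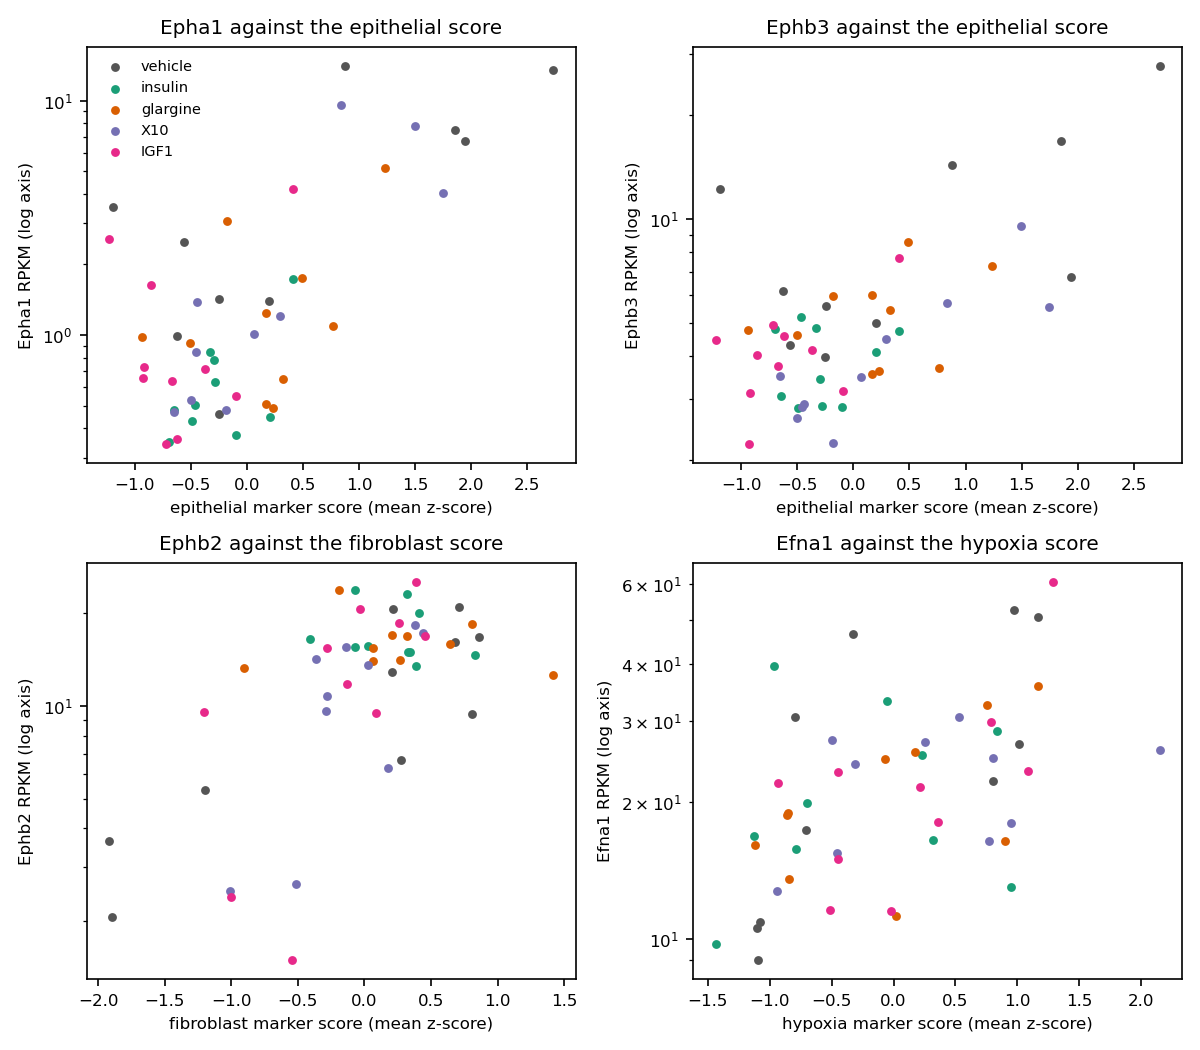
RPKM (log axis) against marker score, 1 point per tumor colored by treatment, for Epha1 and Ephb3 with the epithelial score (r = 0.69 and 0.62), Ephb2 with the fibroblast score (r = 0.64) and Efna1 with the hypoxia score (r = 0.50). The upper panels show most tumors at low scores and a tail of few tumors with both values high.

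Pairs of members were also set against each other. How often pairs of other genes reach an r of the same size was not computed, so the counts below describe these pairs only. Among the 7 genes other than Epha1 and Ephb3, 7 of 21 pairs had an adjusted permutation p under 0.05 for Pearson r (adjusted over all 36 pairs of members), 5 when adjusted over these 21 alone, 3 after centring within treatment and 1 by Spearman rank correlation. Of the 15 pairs with Epha1 or Ephb3, 1 passed in the 30 glargine, X10 and IGF1 tumors, Epha1 with Ephb3. These genes gave r = 0.78 and rho = 0.62 over all tumors, which includes the difference they were chosen for. In the 30 tumors, centred within treatment, r was 0.76 and rho 0.66 (adjusted permutation p = 0.00036 and 0.00936), r without the 2 farthest tumors was 0.69, and within groups r was 0.72 (glargine), 0.87 (X10) and 0.56 (IGF1). Over all tumors without the 6 of highest epithelial score it was 0.66. Ephb4 and Efna1 gave r = 0.64 and rho = 0.62 (adjusted permutation p = 0.00018 for both), 0.67 after centring, between 0.46 (X10) and 0.87 (vehicle) within groups, and 0.62 without those 6 tumors. These were the pairs whose promoters are given above. Ephb3 and Efnb2, a receptor and a ligand that can bind each other, ran in opposite directions with r = -0.48 and rho = -0.42, negative in each of the 5 groups. In the 30 tumors r was -0.51, which did not pass (adjusted permutation p = 0.0548). Epha2 with its ligand Efna1 had r = 0.34 (rho = 0.33), and 0.21 without the 2 farthest tumors.

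The genes most alike to each member over the 50 tumors were found by Spearman rank correlation among the 16733 tested genes. For Ephb3 they were Krt7, a keratin of simple epithelia (rho = 0.73), Scnn1a, a subunit of the epithelial sodium channel (0.72), and Parn (0.71). For Epha1 they were Tax1bp1 (0.68), again Krt7 (0.67) and Lad1, a basement membrane anchor protein (0.66). Krt7 is also 1 of the 10 epithelial markers. For Epha3 they were Cdh11, the cadherin of mesenchymal cells (0.72), Tmem64 (0.71) and the collagen Col6a3 (0.70), and for Ephb2 they were Tpbg (0.65), Gpr180 (0.57) and the collagen Col5a1 (0.56). For Efna1 they were the polyamine oxidase Smox (0.76), the transcription factor Tfap2a (0.75) and the heat shock gene Hspa1a (0.75). Ephb4 had Csf3 (0.73), Irx2 (0.71) and Serinc2 (0.71), and Epha2 had Ctnnal1 (0.66), Hp1bp3 (0.65) and Slc20a2 (0.63). Efnb2 had Stard13 (0.70), Prkci (0.68) and Dtna (0.68), and Efnb1 had Sorcs2 (0.65), Igsf3 (0.63) and 5730559C18Rik (0.58). These genes were chosen for their rho, which is therefore given without a test.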

How the data were processed

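RNA of 50 tumors, 10 per treatment, was Poly-A selected and read on an Ion Proton sequencer. The authors aligned reads to GRCm38 with TopHat2 2.0.10, then Bowtie2, obtained gene counts from HTSeq 0.6.1 and deposited RPKM values (reads normalized to library size and gene length), without log transformation. Tumors titled untreated were taken as vehicle, and a title spelled IFG1 as IGF1. The members, lists and tests were chosen with earlier results of these data known. Replicates are tumors of separate mice. A test of Epha1 and Ephb3 in the pooled comparison was planned and left out, since the tumors that chose them enter it.

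Genes with a mean of at least 0.5 RPKM (16733) were fitted with limma 3.58.1 in R 4.3.3, with an intensity trend and all 5 groups, on log2(RPKM + 0.5). A log2 fold change on this scale understates that of low genes. Adjusted p-values are Benjamini-Hochberg over all tested genes of a comparison, and under 0.05 counted as called. The authors' DESeq2 analysis needs counts and was not repeated. Whole reads were recovered from the RPKM steps for 16414 genes (98.1%), where 98.2% to 99.8% of the low values of a tumor came out whole, and were used for limma voom as an alternative. Levels, scores and relations were computed in Python 3.11.15 (pandas 2.3.3, scipy 1.17.1, numpy 2.4.6), and plots drawn with matplotlib 3.10.9. Fits were tested on simulated data. Genes named are the members, the tested genes of the other Eph and ephrin list, called signalling partners, the 3 genes with the highest Spearman rho per member, and markers beside their lists. Nck2 and the partners named as examples were added after their values were seen. Gene lengths and types are from GENCODE M21 (GRCm38). No protein sequences were used here. Alternatives were pseudocounts of 0.1 and 1, filters of any nonzero value or a mean of 5 RPKM, quantile normalization, upper quartile scaling, no trend, only the groups compared, and library size, epithelial or endothelial score as covariates. Leaving out each tumor, transcript lengths, Spearman correlation, adjustment over pairs without Epha1 and Ephb3, relations in glargine, X10 and IGF1 tumors alone, and leaving out 6 tumors were added after seeing the data.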

Additional observations from a re-analysis of the deposited data

Results flagged for a closer look

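In each group of 10 tumors and each of the 9 genes (45 in all), the gap between the highest or lowest tumor and the next was set against the range of the group on the log2 scale. A tumor stood apart, by Dixon's 95% critical value for 10 samples, in 2 of the 45, which is about the number chance gives at 1 in 20. Epha1 was 1.742 RPKM in insulin_13 and 0.843 RPKM in the next insulin tumor. This tumor also had the highest epithelial score of the insulin group (0.41). Epha2 was 30.613 RPKM in vehicle_197 and 86.5 RPKM in the next vehicle tumor. The same tumor held the highest Epha3 value of all tumors, at 11.2 RPKM.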

How the results depend on the processing

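No paired analysis was possible because the treatment groups share no replicate numbers. The number of members called was 0 in each of the 7 tested comparisons under all 12 alternatives and with any 1 tumor left out. Of 385 values of named log2 fold changes under alternatives, 381 were counted as the same. For tested values this means the same direction and side of the threshold. For values given without a test it means a shift smaller than the within-group SD of the gene, whatever the direction. With the epithelial score as covariate 3 tested values reversed, to -0.0094 for Ephb3 and -0.37 for Epha1 (glargine against IGF1) and -0.11 for Epha1 (X10 against IGF1). With upper quartile scaling Ephb3 (X10 against IGF1) reversed to 0.032. With a filter at a mean of 5 RPKM, Epha1 and Epha3 were not tested. In the order of levels, mean log2 differences reversed for Efnb1 minus Efna1 in vehicle tumors (-0.12), for Ephb4 minus Efnb1 in insulin (-0.065) and X10 tumors (-0.21), and for Epha1 minus Epha3 in insulin (-0.91) and glargine tumors (-0.31). Per longest coding transcript, Epha2 minus Efnb2 (0.090) and Efnb2 minus Ephb4 (0.063) were no longer past the threshold, Ephb4 minus Efnb1 (0.56) now was, and Efnb1 minus Efna1 (-0.43) and Ephb2 minus Ephb3 (-0.15) reversed, since only the length changed. For the 7 genes other than Epha1 and Ephb3, relations with marker scores fell from 15 to 9 by rank correlation and 8 without the 2 farthest tumors, and relations among members from 7 to 1 and 4, and to 3 after centring. The cause was not tested. Epha1 and Epha3 rest on as few as 42 and 13 reads in a tumor.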
